A study of Homo sapiens with 11 samples.

Results

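Simple repeats are runs of a short unit of DNA letters copied head to tail, and low-complexity tracts are stretches rich in 1 or 2 bases without a fixed unit. The members described here are the rows of the deposited J2 tables whose names begin with the class simple repeat or low complexity, which gave 803699 of 5622516 rows (14.3%). Of these, 700455 were simple repeats and 103244 were low-complexity tracts. The low-complexity rows were named A-rich (58203 rows), GA-rich (31428), G-rich (13493) or polypurine (120). Simple repeat rows are named by their unit, and units that are rotations or reverse complements of each other were taken as 1 unit, which gave 3585 units, 1930 of them with a read. Row names give no position and the counting is not stated to use strand, so a row cannot be placed in the genome or assigned to a transcript.

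The cells were HCT116, an established human colorectal cancer line. They were given either luciferase siRNA as a control (siLuc) or Staufen1 siRNA (siStau1), and Staufen1 is a protein that binds double-stranded RNA. Treatment was DMSO or the nucleoside decitabine (DAC), an inhibitor of DNA methylation, which the labels give as 500 nM for 5 days. J2, an antibody, binds double-stranded RNA, and 1 library of bound RNA was used from each of 3 groups (siLuc with DMSO, siLuc with DAC, siStau1 with DAC). The fourth combination, siStau1 with DMSO, has no J2 library in the series, so Staufen1 siRNA can be compared with its control only in DAC. The protocol text in the labels names a Staufen1 antibody, while the labels of these 3 libraries name J2, so the antibody used is uncertain. The J2 tables hold repeats and no genes, so neither the cell line nor the knockdown can be checked in them. In the authors' deposited table of total RNA, the transcript of the targeted gene STAU1 stood at 35.5 FPKM (siLuc DMSO), 33.7 FPKM (siLuc DAC) and 27.1 FPKM (siStau1 DAC). In the authors' deposited table the q-value of siStau1 DAC against siLuc DAC for STAU1 was 0.685, so "siStau1" is used below as the label of a library.

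RNA from simple repeats can form a double strand by folding or by pairing. A unit that is its own reverse complement, such as TA, can fold back on itself, and transcripts from opposite strands of 1 locus can pair with each other. A and T runs often end retrotransposon copies such as Alu and LINE-1, while units rich in G and C are frequent at gene starts and in untranslated regions. Long tracts of CAG, CGG, GAA and a few other units cause repeat expansion disorders. CpG, a C followed by a G, is the main site of DNA methylation in human cells.

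The units that the results turn on are printed below to show the range of base composition, which was the property that the ratios between libraries followed. Each is 1 copy of the unit, written in the rotation and strand that come first in the alphabet, with G and C in capitals and A and T in lower case.
Runs of a single base: a
Repeat of TA, self-complementary: at
Repeat of AAT: aat
Repeat of TTTTA (opposite strand): aaaat
Repeat of AAAATG, a longer unit: aaaatG
Repeat of AGAT: aGat
Repeat of AAC: aaC
Repeat of AC, the unit with most rows: aC
Repeat of CAG (rotated): aGC
Repeat of CGG (opposite strand): CCG
Repeat of CCTG (opposite strand): aGGC
Repeat of GGCCTG (opposite strand): aGGCCC
Repeat of TGGAA (rotated): aatGG
Repeat of CGT (opposite strand): aCG

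The 3 libraries held 71473124 reads (siLuc DMSO), 68944777 reads (siLuc DAC) and 83037330 reads (siStau1 DAC) on repeats, all classes together. Simple repeats and low-complexity tracts took 2466279, 3121654 and 3420158 of these reads, which is 3.45%, 4.53% and 4.12%. The share was lowest in siLuc DMSO and highest in siLuc DAC. Most member rows held no read: the share of them with a read was 8.38%, 11.3% and 9.96%, and 15.4% had one in any library. Read numbers and shares are given in the order siLuc DMSO, siLuc DAC, siStau1 DAC. The log2 ratio of siLuc DAC over siLuc DMSO is called the DAC ratio, and that of siStau1 DAC over siLuc DAC the siStau1 ratio, both scaled to the reads on repeats. Each group had 1 library, so no difference below has a replicate check and no test between conditions was made. The 95% intervals given cover counting error only, with both mates of a read pair taken as 1 draw. Each library is a bulk sample, so more RNA per cell, more cells with the RNA and better capture cannot be told apart.

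Simple repeats made up 2.87%, 3.77% and 3.42% of reads on repeats. Low-complexity tracts made up 0.581%, 0.759% and 0.697%. The DAC ratio was 0.39 for simple repeats and 0.39 for low-complexity tracts, and the siStau1 ratio -0.14 and -0.12. The log2 ratio of siStau1 DAC over siLuc DMSO was 0.25 and 0.26. These sums depend on what the libraries are scaled to, because Alu elements alone took 57.5%, 46.8% and 54.0% of reads. With reads outside Alu as the base, the simple repeats' DAC ratio was 0.07 and their siStau1 ratio turned to 0.07. With the authors' own factors the same 2 ratios were 1.28 and -0.46. Any such scaling adds 1 constant to every ratio of a pair of libraries, so the differences between units, lengths and base compositions below do not depend on it.

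The ratio between libraries followed the base composition of the unit. Repeats of only A and T held 88486, 187188 and 152922 reads. Per 1000000 reads on repeats these are 1238, 2715 and 1842, so siLuc DAC was highest and siLuc DMSO lowest. The DAC ratio was 1.13 (95% counting interval 1.12 to 1.15). It was 0.98 for units of over 0 to 25% GC, 0.61 for over 25 to 50%, 0.24 for over 50 to 75% and 0.19 (0.18 to 0.19) for over 75%. At over 75% GC the 3 libraries had 523798, 574790 and 655939 reads, or 7329, 8337 and 7899 per 1000000. Thus the A and T units stood above the units of over 75% GC by 0.95 on the log2 scale. The first 2 bins could not be ordered, since without the row with most reads in each bin they gave 1.18 and 1.19.

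**Figure D1:**
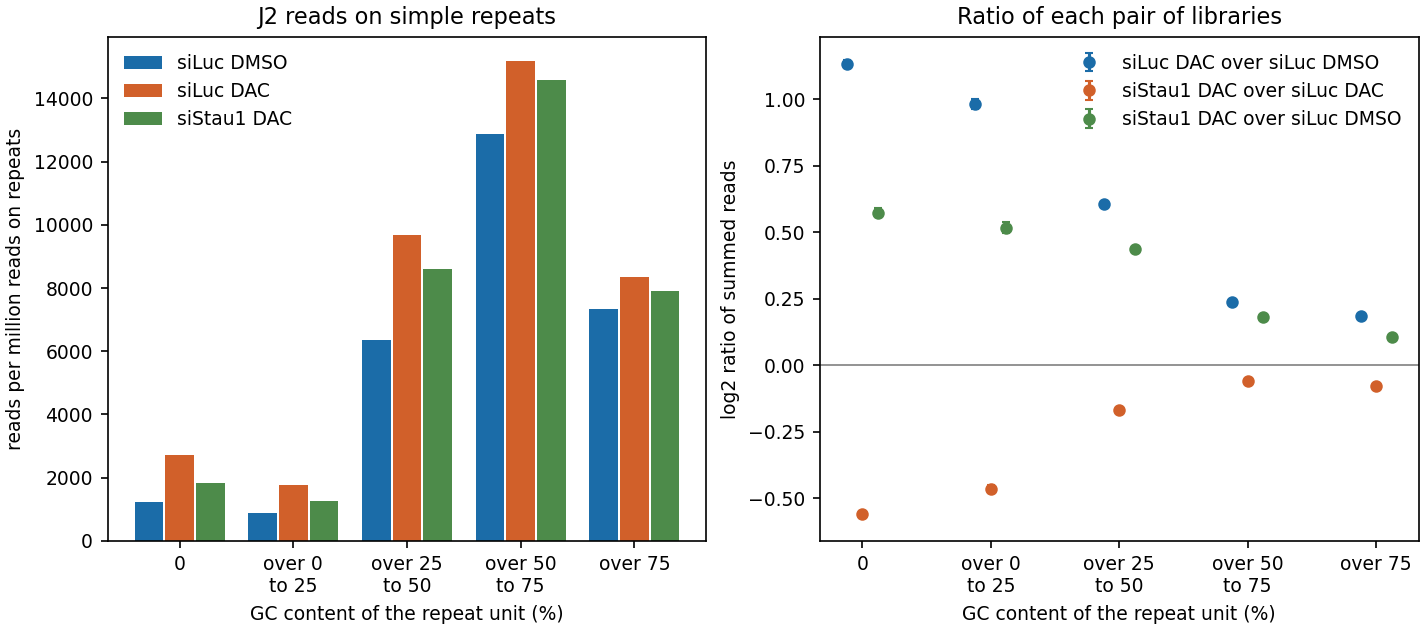
Left, reads per 1000000 reads on repeats (bars, from 0) in the 3 J2 libraries for simple repeats binned by the GC content of the unit; right, log2 ratio of the summed reads for each pair of libraries (points) with 95% counting intervals (bars, mostly smaller than the points). The DAC ratio goes from 1.13 at 0% GC to 0.19 at over 75% GC.

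The siStau1 ratio ran against this order, apart from its last 2 bins, and the remaining pair followed it. The siStau1 ratio was -0.56 at 0% GC, -0.47 at over 0 to 25%, -0.17 at over 25 to 50%, -0.06 at over 50 to 75% and -0.08 at over 75%. In siStau1 DAC over siLuc DMSO the bins gave 0.57, 0.52, 0.44, 0.18 and 0.11. The 3 pairs share libraries, so these are 3 views of 3 values and not separate evidence. In each bin siStau1 DAC lay between the other 2 libraries per 1000000 reads. With reads outside Alu as the base, each DAC ratio is lower by 0.32, which puts units above 50% GC below 0.

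Across the 1202 units with at least 20 reads in siLuc DAC and siLuc DMSO together, the Spearman rank correlation between GC content and the DAC ratio was -0.62, and with unit length -0.11. The units share the same libraries and their base composition and depth, so these values are descriptions. Of the 1202 units, 924 had a DAC ratio above 0, a number that was 672 with reads outside Alu as the base and 1142 with the authors' factors. Of the 1236 units with at least 20 reads in siStau1 DAC and siLuc DAC together, 436 had a siStau1 ratio above 0, against 634 and 205 with those bases. Single units at a low GC content spread widely, and those at a high GC content kept near 0.

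**Figure D2:**
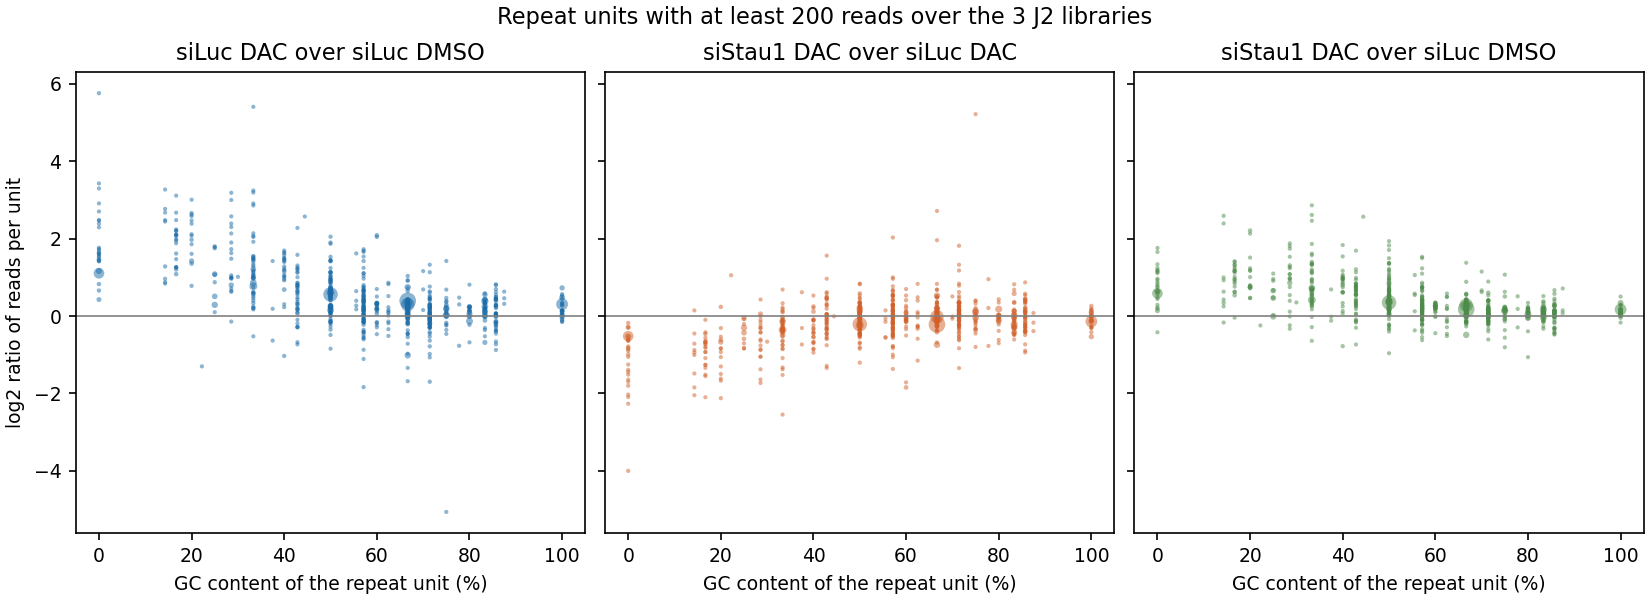
Log2 ratio of reads per repeat unit (vertical) against the GC content of the unit (horizontal) for the 702 units with at least 200 reads over the 3 J2 libraries, 1 panel per pair; the area of a point grows with the reads of the unit, and 2 units with under 3 reads in a library are left out of each of the first 2 panels. Most low-GC units sit above 0 in the left and right panels and below 0 in the middle one.

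Runs of A or T were the unit with most reads among the units without G or C. They held 58859, 122274 and 102844 reads, with a DAC ratio of 1.11 (1.09 to 1.13) and a siStau1 ratio of -0.52. The rows listed as A gave 20971, 47371 and 37764 reads and those listed as T gave 37888, 74903 and 65080, with DAC ratios of 1.23 and 1.04, so both listed strands were higher in siLuc DAC. Of the 1427 A or T rows with at least 20 reads in that pair, 826 were past 2-fold up and 53 past 2-fold down, where the shares over all repeat rows were 21.3% up and 17.0% down.

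The self-complementary unit AT had 13243, 28691 and 23946 reads, a DAC ratio of 1.17 and a siStau1 ratio of -0.53. AAT had 2518, 6630 and 4511 reads, a DAC ratio of 1.45 (1.35 to 1.54) and a siStau1 ratio of -0.82. Both units were rarely seen: 6.26% of AT rows and 5.94% of AAT rows had a read in any library, against 17.8% of A or T rows. Repeated spellings in the row names are a minor part: 66 units are a shorter unit written more than once, with 3.15% of simple repeat reads.

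Units of 3 bases with 1 G or C had a DAC ratio of 0.87 in the sum. AAC had 8548, 19176 and 16408 reads, with a DAC ratio of 1.22. ATC had 18153, 31796 and 34787 reads and a DAC ratio of 0.86, and its median over 191 rows was 1.62. ATC was highest in siStau1 DAC in reads, and its siStau1 ratio was -0.14. AAG, which holds GAA, the unit expanded in Friedreich ataxia, had 31824, 52436 and 49313 reads and a DAC ratio of 0.77, with 24.0% of its reads in 1 row.

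The dinucleotides with 1 G or C are the common microsatellites. AC, found in 116075 rows, had 145528, 207152 and 215764 reads, with a DAC ratio of 0.56 (0.55 to 0.58) and a siStau1 ratio of -0.21. AG had 33433, 49282 and 50314 reads, a DAC ratio of 0.61 and a siStau1 ratio of -0.24. Both stood between the A and T units and the G and C units. CG had 950, 1163 and 1144 reads and a DAC ratio of 0.34, which was 0.04 without its top row. Runs of C or G had 4253, 4533 and 5036 reads and a DAC ratio of 0.14.

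Most reads of trinucleotides lay on units with 2 or 3 G or C. AGC, the unit that codes for polyglutamine when read as CAG and is expanded in Huntington disease, had 213872, 271273 and 281224 reads. Its DAC ratio was 0.39, or 0.30 without its top row, and its siStau1 ratio was -0.22. The siStau1 ratio leaned on the same row: rows listed as AGC had -0.32, or -0.02 without it, and rows listed as CTG had -0.11. CCG, the unit of fragile X syndrome when read as CGG, had 103384, 123498 and 135246 reads and a DAC ratio of 0.31. AGG had 138071, 163831 and 195144 reads and a DAC ratio of 0.30, and ACC had 53451, 65978 and 76331 and a DAC ratio of 0.36. These units were often seen: 47.6% of AGC rows and 51.7% of CCG rows had a read in any library.

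ACG went the other way in the sum. It had 30113, 14370 and 24986 reads, so siLuc DAC was lowest, with a DAC ratio of -1.02 and a siStau1 ratio of 0.53. It has only 64 rows, and 2 of them, both listed as CGT and with nearly the same reads, hold most of its siLuc DMSO reads: 11934, 3887 and 8313 in 1 and 11870, 3843 and 8244 in the other. The rows listed as ACG alone had a DAC ratio of 0.19, and the median over 26 ACG rows of either strand was 0.10. ACT, with 809, 1029 and 1132 reads, had a DAC ratio of 0.40, which was 0.89 without its top row. Its strands lay on opposite sides of 0, with 1.35 (1.06 to 1.64) for rows listed as ACT and -0.50 (-0.77 to -0.23) for rows listed as AGT, and the latter was 0.28 without its top row.

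Of the other units known from repeat expansion disorders or telomeres, those with more A and T mostly had the higher DAC ratios. ATTCT, of a spinocerebellar ataxia, had 44, 345 and 147 reads and a DAC ratio of 3.01 (2.37 to 3.65), or 2.63 without its top row. TTTTA, of familial adult myoclonic epilepsy, had 1157, 3478 and 2107 reads and a DAC ratio of 1.64, and its partner TTTCA had 479, 795 and 772 and a DAC ratio of 0.78, which was 1.36 without its top row. AAAAG and AAGGG, which occur at the locus of an inherited ataxia with neuropathy, had DAC ratios of 1.36 and 0.34. GGGGCC, of amyotrophic lateral sclerosis and frontotemporal dementia, had 8268, 13218 and 11011 reads and a DAC ratio of 0.73, which was 0.46 without the row that held 30.6% of its reads. Each listed strand leaned on a row of its own. Rows listed as CCCCGG had 0.51, or 0.23 without their top row, and rows listed as CCGGGG had 0.91, or 0.36.

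The disease units CCTG and GGCCTG were near 0. CCTG, of myotonic dystrophy, had 27784, 27312 and 35261 reads, with a DAC ratio of 0.03 and a siStau1 ratio of 0.10. GGCCTG, of another spinocerebellar ataxia, had 13125, 12676 and 15702 reads and a DAC ratio of 0.00. The telomere unit TTAGGG had 643, 588 and 764 reads, and its DAC ratio of -0.08 (-0.31 to 0.15) could not be told from 0 at this depth. TGGAA, which is found in a spinocerebellar ataxia and in pericentromeric satellite DNA, had 1803, 852 and 1222 reads and a DAC ratio of -1.03 (-1.20 to -0.86).

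Among the 87 longer units that had at least 2000 reads, 20 rows with a read and under 25% of reads in 1 row, the highest DAC ratios were AAAATG at 1.98, AGAT at 1.78, AAAAT at 1.64, ACATAT at 1.62 and AAACC at 1.43. AAAATG had 306, 1164 and 661 reads, and AGAT had 679, 2253 and 1532. The lowest were AATGG at -1.03, AGCCCCC at -0.45, AGGATGG at -0.43, AGCGCC at -0.36 and AGGCCCC at -0.17. Single rows weighed on some of these low values. Rows listed as AGCCCCC had -0.45, or -0.21 without their top row. For the unit AGGATGG, rows listed as ATCCTCC had -0.81, or -0.01 without their top row. Its rows listed as AGGATGG had -0.16, or -0.27 without theirs. AATGG was -1.13 without its top row. AGCCCCC had 2463, 1740 and 2693 reads. These 10 were chosen for their ratios, and the base composition of the 87 units together is not given. They are thus no separate evidence on base composition. AATGG was the only 1 among the lowest with more A and T than G and C.

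The ratio followed unit length less closely than base composition. The DAC ratio was 1.06 for units of 1 base, 0.62 for 2, 0.37 for 3, 0.35 for 4, 0.33 for 5, 0.33 for 6 and 0.24 for longer units. The units of 1 base are almost all A or T, so length and base composition overlap in these bins. Within 1 length, units could be compared by base composition, but the read level changed with it. In units of 5 bases, reads per row in siLuc DMSO were 0.077 with no G or C and 15.7 with 4. Among units of 5 bases the ratio was 1.76 with no G or C, then 1.52, 0.79, 0.42, 0.03 and 0.03 with 1 to 5 of them. Among units of 6 bases it was 1.66, 1.47, 0.95, 0.45, 0.23, 0.19 and 0.39 with 0 to 6. Among units of 3 bases it was 1.47, 0.87, 0.30 and 0.31.

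Units of 4 bases had a ratio of 0.55 with no G or C, then 0.64, 0.36, 0.12 and 0.47, and single rows decided both ends. Without the top row at each number of G or C the 4-base values were 1.20, 0.90, 0.38, 0.14 and 0.09. Among units with no G or C, the ratio was 1.11 at 1 base, 1.13 at 2, 1.47 at 3, 1.76 at 5, 1.66 at 6 and 3.27 (3.07 to 3.47) at over 6. The units of over 6 bases held 439, 4095 and 883 reads, and without their top row the ratio was 2.51. Among A and T units the ratio was thus highest at over 6 bases, while over all units it was lowest there. The share of rows with a read in any library ran opposite to the ratio, from 6.11% to 43.2% between 0 and 5 G or C in units of 5 bases.

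**Figure D3:**
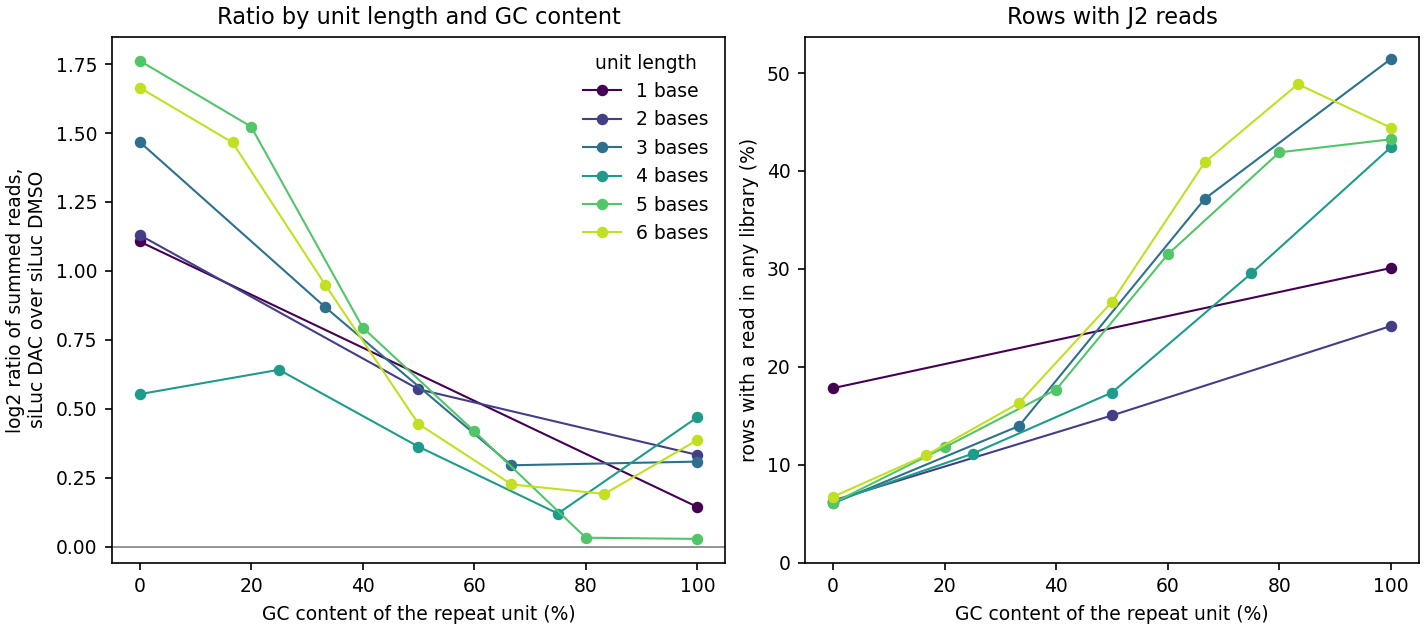
Left, log2 ratio of summed reads in siLuc DAC over siLuc DMSO, and right, the percentage of rows with a read in any J2 library, both against the GC content of the unit, with 1 line per unit length of 1 to 6 bases. In units of 5 bases the ratio goes from 1.76 to 0.03 while rows with a read go from 6.11% to 43.2%; the 4-base line starts at 0.55, which is 1.20 without its top row.

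Units with and without a CpG differed little at over 75% GC. Among units of over 75% GC, those that hold a CpG had 336033, 378844 and 428995 reads and a DAC ratio of 0.22, and those without had 187765, 195946 and 226944 reads and a DAC ratio of 0.11. The difference of 0.11 was small beside the 0.95 between A and T units and units of over 75% GC. In the siStau1 ratio the CpG difference in that bin was -0.03. Among units of over 50 to 75% GC, the DAC ratios of the sums were -0.18 with CpG and 0.27 without, while the medians over rows were 0.14 and 0.17, and the 2 CGT rows given above are in the first sum.

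Other features of the letters went with small differences among units of only A and T. Units equal to their own reverse complement had a DAC ratio of 1.16 and the others 1.13. Units of purines on 1 strand had 1.10 and the others 1.20. Units alternating purine and pyrimidine had 1.13 and the others 1.13. At over 75% GC, units with GGG or CCC, the core of G-quadruplexes, had 0.17 and the others 0.21. In the bins between, some differences of the sums were larger. At over 0 to 25% GC, units of purines on 1 strand had 0.51 and the others 1.22, while the medians over rows were 1.25 and 1.35. Self-complementary units had 0.24 against 0.61 at over 25 to 50% GC, with row medians of 0.40 (41 rows) and 0.66. At over 50 to 75% GC they had -0.05 against 0.24, with row medians of -0.07 (38 rows) and 0.17.

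The low-complexity tracts gave the same order without a unit. A-rich tracts had 32938, 78247 and 62026 reads, a DAC ratio of 1.30 (1.27 to 1.33) and a siStau1 ratio of -0.60. GA-rich tracts had 176532, 229343 and 259455 reads, a DAC ratio of 0.43 and a siStau1 ratio of -0.09. G-rich tracts had 205782, 216001 and 257178 reads, a DAC ratio of 0.12 (0.11 to 0.13) and a siStau1 ratio of -0.02. Polypurine tracts had 8, 10 and 12 reads, too few for a ratio to be read. A read was seen on 13.1% of A-rich rows, 21.4% of GA-rich rows and 41.2% of G-rich rows.

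Row by row, 23716 member rows had at least 20 reads in siLuc DAC and siLuc DMSO together, and 7126 (30.0%) were past 2-fold up, where the same share over all 604858 repeat rows was 21.3%. Past 2-fold down were 1981 (8.35%), against 17.0% of all repeat rows. The median DAC ratio was 0.41, against 0.01 over all rows, 0.86 over LINE rows, 0.57 over LTR rows and -0.32 over Alu rows. By row medians the members thus lay above all rows and below LINE and LTR rows, while by summed reads LTR was lower (0.31 against 0.39 for members). Of the 604858 rows, 343190 were Alu rows, with 7.29% past 2-fold up. The members' 30.0% up was below the shares of other SINE (33.5%), LTR (35.9%), LINE (46.2%) and DNA transposon (48.0%) rows. Of 26058 member rows with a siStau1 ratio, 10.1% were past 2-fold up, against 15.5% of all rows, and 20.4% past 2-fold down, against 14.8%. In siStau1 DAC over siLuc DMSO the shares were 18.1% and 6.36% of 23058 rows, against 14.5% and 8.27%. A limit of 20 reads in the pair lets in rows through the library where they are high, so rows were also taken by the library the pair does not use. For the DAC ratio that library is siStau1 DAC, which was also given DAC and stood above siLuc DMSO at 0% GC (log2 ratio 0.57). Rows higher with DAC can thus still enter through it, so for the DAC ratio this choice is not free of the same selection.

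Taken by at least 10 reads in siStau1 DAC, the median DAC ratio was 0.97 for rows of 0% GC, 0.98 for over 0 to 25%, 0.54, 0.14 and 0.05 for over 75%. The first 2 bins were nearly equal there, with the second the higher, the later bins kept their order, and the ends lay closer than the 1.37 and 0.11 of the rows taken by the pair. Taken by at least 10 reads in siLuc DMSO, the median siStau1 ratios were -0.19, -0.20, -0.14, -0.00 and -0.05, against -0.54 and -0.07 at the ends by the pair. The gap between base compositions in the siStau1 ratio was thus smaller with rows taken that way. By level, the median DAC ratio at 0% GC was 1.53 in rows with 20 to 50 reads over the 3 libraries and 0.55 in rows with over 500, against 0.05 and 0.17 at over 75% GC. The median siStau1 ratio at 0% GC was -0.73 in rows with 20 to 50 reads and -0.09 in rows with over 500, against -0.08 and -0.01 at over 75% GC. In rows with over 500 reads the gap between these bins was thus smaller in both ratios, and small in the siStau1 ratio.

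Row order in the deposited tables is not stated to follow the genome, but rows with reads lie together: 85.4% of member rows with at least 20 reads had an adjacent row of another repeat class with at least 20, against 15.4% of the others. Each simple repeat row was set against the summed reads of its adjacent rows of other classes. At 0% GC, the repeat's DAC ratio exceeded that of its adjacent rows by a median of 0.86, and 1161 of 1561 rows (74.4%) were above. The median difference was 0.87 at over 0 to 25% GC, 0.36 at over 25 to 50%, 0.00 at over 50 to 75% and -0.07 at over 75%. For A-rich tracts it was 1.06. With rows taken by reads in siStau1 DAC, itself a DAC library, the same 5 medians were 0.73, 0.76, 0.36, 0.01 and -0.05. That of A-rich tracts was then 0.79. In the siStau1 ratio, rows taken by reads in siLuc DMSO had median differences of -0.24, -0.27, -0.16, -0.02 and -0.05.

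**Figure D4:**
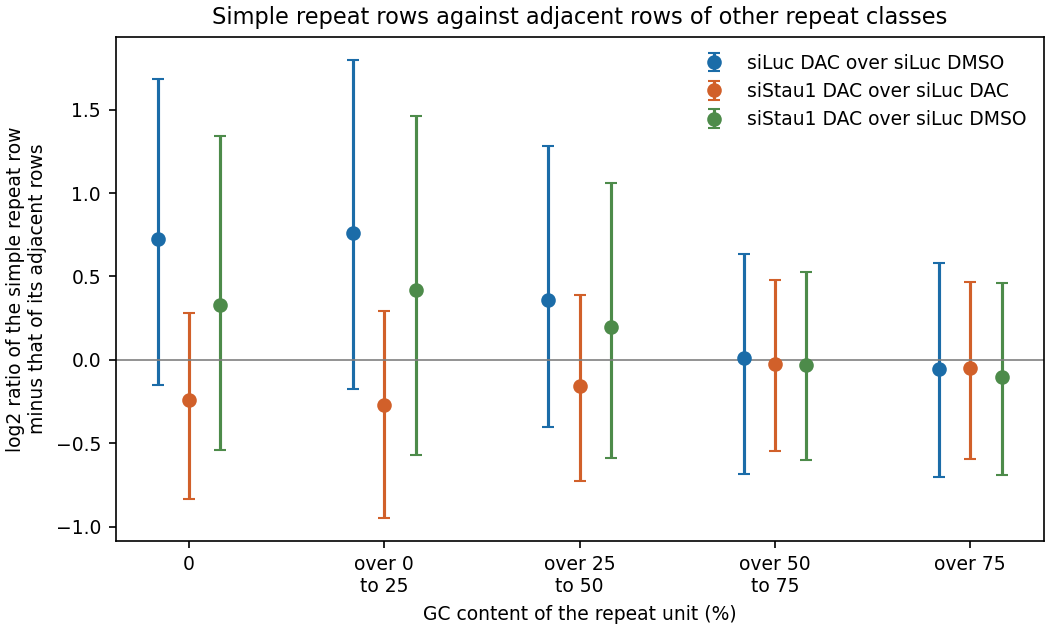
Median (point) and middle 50% of rows (bar) of the log2 ratio of a simple repeat row minus that of its adjacent rows of other repeat classes, by GC content of the unit and pair of libraries, with rows taken by at least 10 reads in the library the pair does not use. At 0% GC the medians are 0.73 for siLuc DAC over siLuc DMSO and -0.24 for siStau1 DAC over siLuc DAC, while at over 75% GC both are -0.05, and the bars cross 0 in every bin.

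Rows beside an Alu in the deposited order were looked at apart, because A and T runs often end Alu copies. For A or T runs, 28460 of 70997 rows (40.1%) had an Alu beside them, and the DAC ratio was 1.08 there and 1.13 elsewhere. For AT it was 1.39 beside an Alu and 0.98 elsewhere, for AGC 0.52 and 0.28, and for A-rich tracts 1.37 and 1.24. Without the top row of each group these were 1.30 and 1.07, 0.33 and 0.26, and 1.35 and 1.33. AAC (1.27 and 1.19), AC (0.66 and 0.50), CCG (0.38 and 0.26) and GA-rich tracts (0.56 and 0.34) were also higher beside an Alu. AG (0.62 and 0.61), AAT (1.46 and 1.44) and G-rich tracts (0.12 and 0.12) were nearly equal. This grouping leaned on single rows. Without the top rows, AG was 0.71 and 0.61, AAT 1.43 and 1.55, and G-rich tracts 0.07 and 0.13. In that setting AAC was 1.24 and 1.17, AC 0.69 and 0.51, CCG 0.28 and 0.22, and GA-rich tracts 0.57 and 0.36. A or T runs were then 1.16 and 1.17. The Alu class itself had a DAC ratio of -0.30 under this scaling. The authors' factors add 0.89 to each DAC ratio, which puts the class above 0, where A or T runs beside an Alu lie under both scalings.

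A few rows held much of the sum. The 10 rows with most reads in each library held 5.94%, 6.12% and 4.85% of member reads, and the top 1000 held 49.1%, 46.3% and 48.6%. A (GCA)n row led with 35184, 59686 and 38904 reads, so it was high in siLuc DAC alone, with a DAC ratio of 0.81 and a siStau1 ratio of -0.89. A (CTGCTG)n row had 14595, 25452 and 15924 reads and the same shape. A (TCTTCC)n row had 11223, 7077 and 16998, and was lowest in siLuc DAC. A (CAACTAT)n row had 6602, 11088 and 13880. Of the 10438 rows with at least 100 reads over the 3 libraries, 96 shared all 3 read numbers with another row, and whether such rows hold the same reads cannot be told from the files.

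Rows with reads in 2 libraries and none in the third were rare. Of 12140 member rows with at least 20 reads in both siLuc DMSO and siStau1 DAC, 131 (1.08%) had 0 in siLuc DAC, against 2.15% of all repeat rows. Of 13061 rows with at least 20 reads in both DAC libraries, 24 (0.184%) had 0 in siLuc DMSO, against 0.202%. None of 11344 had 0 in siStau1 DAC, against 0.00420%. With at least 100 reads in the other libraries, 11 of 3861 rows (0.285%) had 0 in siLuc DAC, against 0.681%, and 0 of 4218 had 0 in siLuc DMSO, against 0.00106%. The rows with most reads that were at 0 in siLuc DAC were a G-rich tract with 331 and 359 reads in the other libraries, a (GCCAA)n row with 246 and 282, a GA-rich tract with 131 and 287, and a (TGCCT)n row with 140 and 231. Those at 0 in siLuc DMSO were led by a (CA)n row with 102 and 38 reads in the others and a (GTATTT)n row with 63 and 28. A count of 0 allows up to 3 reads in that library.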

How the data were processed

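Per the file headers, the authors deposited 3 tables of J2 values, 1 per pair of libraries, with the same rows in the same order. In the siLuc DMSO column, the deposited values are counts with 1 added. Both DAC columns are a deposited signal: counts with 1 added, then multiplied by the column's lowest value (1.92 for siLuc, 1.27 for siStau1). Division by that lowest value returned whole numbers in 100% of rows (tolerance 1e-06), from which 1 was taken. Equal totals would need factors of 1.04 and 0.861. The deposited score in each table, a ratio on a logarithm of base 1.5, was not used. The authors' deposited table of FPKM and q-values was read for STAU1 alone. The submitters' processing notes name bcl2fastq 2.20, HISAT2 2.1.0, featureCounts, DESeq 1.36.0, Cuffdiff 2.2.1, Cuffnorm 2.2.1 and hg38, with no role. How reads matching many places were counted is not stated, so near-identical rows are uncertain. Numbers of 2, 4 or 6 reads were more frequent than 1, 3 or 5 (23152 against 17998 member rows in siLuc DMSO).

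Ratios are log2 values after 0.5 reads were added to each number and the library totals over all repeat rows were made equal, and row statistics use rows with at least 20 reads in the pair. With 1 library per group no count model was fitted. Units of 1 to 3 bases, a list of disease and telomere units, the 5 highest and lowest longer units past the limits given in the text for each pair, and the top rows were eligible for naming. The members and lists were chosen with earlier results of these data known. The unit grouping and ratios were tested on simulated data. Other scalings, read limits, groupings and sums without top rows were tried, and the level, adjacent-row and third-library views and the reduction of units were added after seeing the data. Python 3.11.15, pandas 2.3.3, numpy 2.4.6 and scipy 1.17.1 were used.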

Additional observations from a re-analysis of the deposited data

How the results depend on the processing

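No paired analysis was possible because each J2 group has 1 library, and no library could be left out. The differences between A and T units and units of over 75% GC, and between units of 1 base and of over 6 bases, kept their sign under each setting tried. No scaling can move them, since each adds 1 constant. None of these settings held base composition fixed for the length difference. Among units with no G or C that difference had the opposite sign. The DAC ratio there was 1.11 at 1 base and 3.27 at over 6, or 2.51 without the top row of the latter. Neighbouring bins of length or GC content can change order without their top rows. Without the top row of each unit, A and T units minus units of over 75% GC gave 1.06, -0.55 and 0.51 for siLuc DAC over siLuc DMSO, siStau1 DAC over siLuc DAC and siStau1 DAC over siLuc DMSO. In the same order and setting, 1 base minus over 6 bases gave 0.93, -0.46 and 0.47. The CpG difference at over 75% GC was then 0.14 for the first pair, and the sum of simple repeats 0.40 for the first pair and 0.26 for the third.

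The sums moved with the scaling. With the authors' factors they were 1.28, -0.46 and 0.82 for simple repeats and 1.28, -0.45 and 0.83 for low-complexity tracts. With totals outside Alu they were 0.071, 0.070 and 0.14 for simple repeats and 0.064, 0.085 and 0.15 for low-complexity tracts, which turns the sign of siStau1 DAC over siLuc DAC in both. As a share of reads outside Alu, simple repeats were 6.75%, 7.08% and 7.44% in siLuc DMSO, siLuc DAC and siStau1 DAC, and low-complexity tracts 1.37%, 1.43% and 1.51%. Without the 10 top rows simple repeats were 2.68%, 3.50% and 3.23% of all reads on repeats. The rows listed as ACG alone turned that unit's first ratio to 0.19. The cause was not tested for the sums.

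The share of rows past 2-fold changed with each setting. The settings are, in order, the authors' factors, totals outside Alu, totals on the members, at least 100 reads in the pair, at least 10 reads in the library outside the pair, and any read. For siLuc DAC over siLuc DMSO, up was 62.8%, 22.7%, 21.6%, 19.1%, 27.4% and 50.9%, and down 3.08%, 13.3%, 14.6%, 3.78%, 12.4% and 21.2%. For siStau1 DAC over siLuc DAC, up was 6.46%, 13.6%, 12.4%, 4.70%, 13.2% and 26.1%, and down 29.4%, 16.1%, 17.2%, 8.55%, 14.0% and 43.4%. For siStau1 DAC over siLuc DMSO, up was 37.6%, 15.7%, 12.9%, 10.1%, 24.1% and 41.3%, and down 1.89%, 7.81%, 10.4%, 0.890%, 8.33% and 23.8%. Of 138 values of named units reduced to the shortest unit 132 stayed within counting error, as did 150 of 150 with 5 reads added and 96 of 150 without the top row. Scaling moved most of the 150 values: 7 stayed with the authors' factors, 29 with totals outside Alu and 22 with totals on the members. With the listed strands kept apart, 131 of 270 stayed and 138 moved. Depth limits single rows: most member rows hold no read.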
